A study of Homo sapiens with 4 samples.

Results

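The 50 genes described here act in mitosis, from the kinases and phosphatases that trigger entry through spindle assembly, chromosome condensation and anaphase to cytokinesis, together with transcription factors of the same phase. They were taken as a list of gene symbols found in the files of all 4 libraries, and a mean of 30 or more normalized counts over them. All 50 of the 50 listed symbols met this rule, out of 12742 genes that did so and 42113 gene models in the files. The lowest member, HAUS8, had a mean of 113 normalized counts, so the filter removed no member.

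RNA was sequenced from A549, a human cell line of lung cancer origin in long use. A stable population carried a lentiviral control short hairpin RNA (shRNA) and another carried an shRNA against LIMA1, which encodes EPLIN, an actin-bundling LIM-domain protein. Nutlin-3a (10 µM), which frees p53 from its ubiquitin ligase MDM2, was added to a culture of each and left out of another, and RNA was taken 24 h after treatment. There was 1 library for each of the 4 groups, so there is no spread between replicates, no test was made and every difference below compares libraries. Since each shRNA had its own stable population, an effect of the shRNA and another difference between both populations cannot be told apart. Sample titles write si where the protocols write shRNA, and EPLIN takes the place of LIMA1 in the header of the LIMA1 shRNA library with nutlin-3a.

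Values are normalized fragment counts: fragments per gene divided by 1 size factor per library, not by gene length. Libraries held 15.2 to 16.7 M fragments. A difference is taken between log2(normalized count + 1) values, and a gene is called higher or lower at a size of at least 1. Intervals in parentheses are 95% exact Clopper-Pearson intervals from the fragments behind 2 values, on the ratio without the added 1. They cover counting error alone. LIMA1 itself had 416 (control shRNA) and 68.3 (LIMA1 shRNA) normalized counts in untreated cells, and 866 and 133 with nutlin-3a. It was therefore low in both libraries labelled LIMA1 shRNA. With nutlin-3a, MDM2 went from 1844 to 27580.3 normalized counts in control shRNA cells and from 1857 to 33982.5 in LIMA1 shRNA cells. CDKN1A, which encodes the p53-induced cyclin-dependent kinase inhibitor p21, went from 1066 to 34078.3 and from 1178 to 48106. Of the 6 epithelial markers, EPCAM was lowest at 31.1 to 229 normalized counts and the highest value was 82811. Of 9 markers of blood, fibroblast, endothelial, oligodendrocyte and liver cells, 3 (PTPRC, CD3E and COL1A2) stayed under 3 normalized counts in every library. Summed, the 9 gave 731 and 826 untreated and 1014 and 933 with nutlin-3a, mostly MBP at 633 to 956; their part in the results was not tested.

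A cell enters mitosis when cyclin B with CDK1 is switched on by CDC25 phosphatases and by Aurora and Polo-like kinases. Condensin compacts the chromosomes, the spindle captures them, and the anaphase-promoting complex (APC/C) with CDC20 releases separase and ends mitosis, after which an actomyosin ring divides the cell. Most genes of this programme are transcribed late in the cycle. In resting cells they are held down by the DREAM complex of RB-like proteins, E2F4 and MuvB, which binds the cell cycle genes homology region (CHR) of their promoters. When p53 raises p21, cyclin-dependent kinases are inhibited and DREAM forms. In growing cells MuvB instead works with B-MYB and FOXM1 at the same promoters. EPLIN has also been described at the cleavage furrow.

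With nutlin-3a the mitotic genes were low in both cell populations. In control shRNA cells 45 of 50 were called lower and 0 higher, where 5.64% of all measured genes were called lower and 5.54% higher. In LIMA1 shRNA cells 46 of 50 were called lower and 0 higher, against 6.08% and 7.29% of all measured genes. Members lower in both populations numbered 44, against 4.58% of measured genes. The median difference was -4.17 in control shRNA cells (order-statistic interval -4.79 to -3.05) and -4.28 in LIMA1 shRNA cells (-5.02 to -2.74), while the medians over all measured genes were -0.02 and -0.02. Such an interval, here and below, describes spread over the listed genes, which are not independent replicates. It does not give the error of a difference between cultures. A difference of at most -4 was reached by 27 members in control shRNA cells, against 0.895% of measured genes, and by 29 in LIMA1 shRNA cells, against 0.903%.

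For all 50 members both nutlin-3a libraries lay below both untreated libraries, an order that 36.1% of measured genes had. The counting interval lay below 0 for all 50 in both populations, a count not made over measured genes. Summed, the members took 0.766% and 0.76% of the normalized counts of the untreated control and LIMA1 shRNA libraries, and 0.107% and 0.121% with nutlin-3a. Their sum thus stood at 13.8% of its untreated level in control shRNA cells and at 15.9% in LIMA1 shRNA cells. In bulk RNA, fewer cells in mitosis and less RNA of these genes per cell cannot be told apart.

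**Figure D1:**
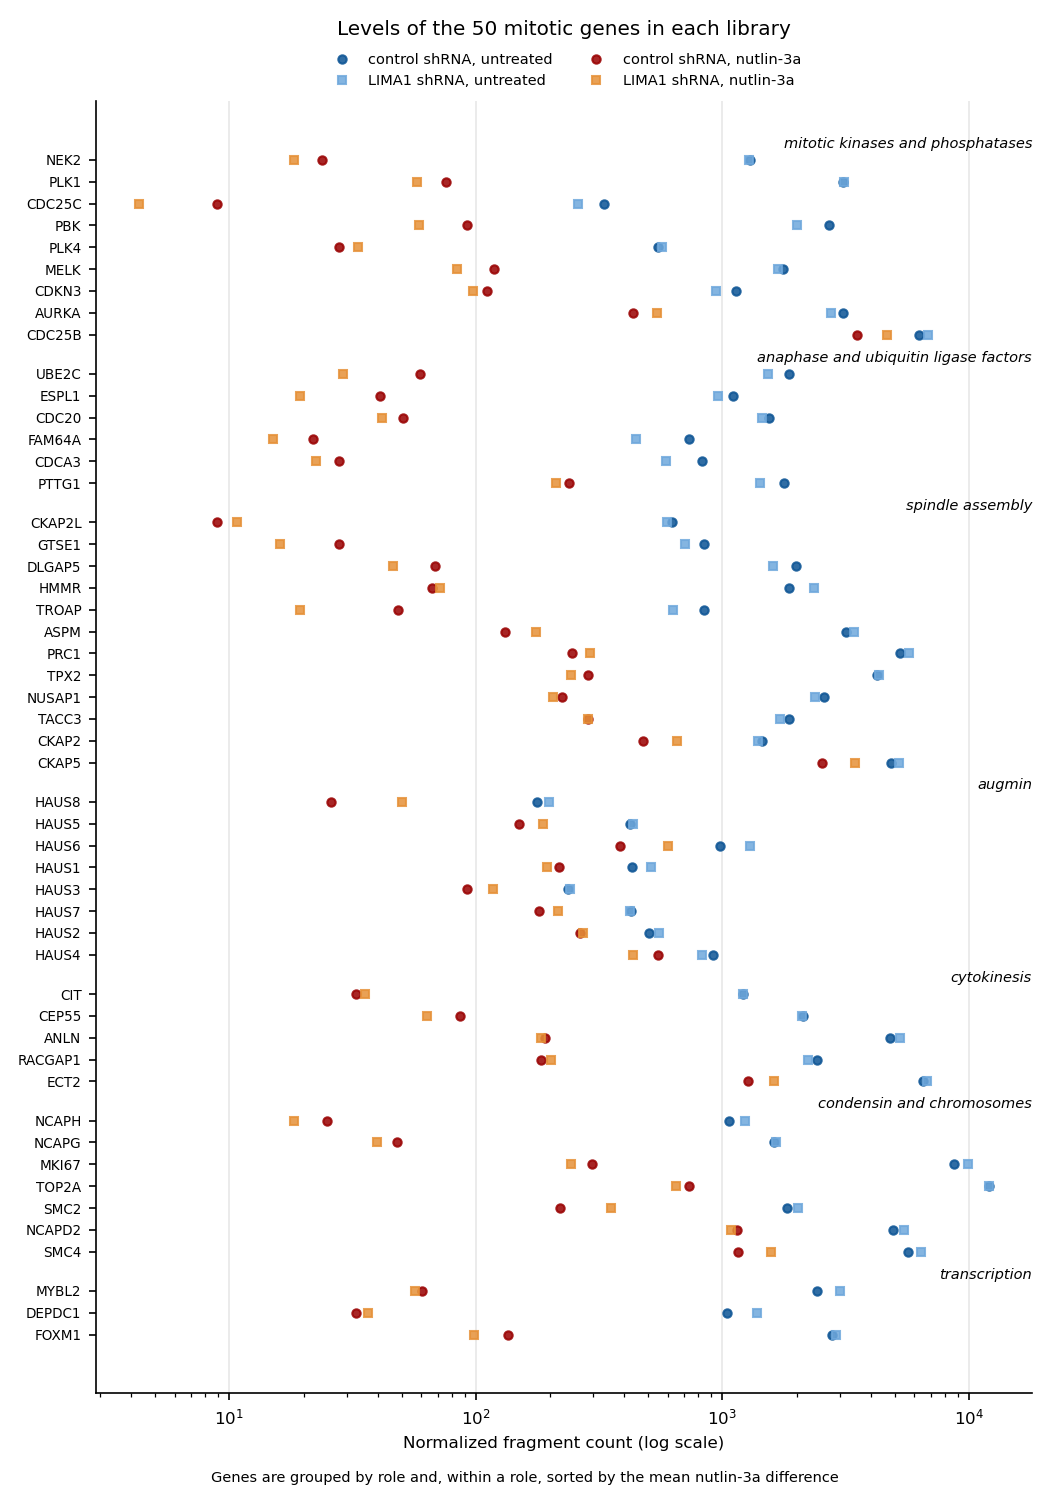
Normalized fragment count (log axis) of each of the 50 genes in the 4 libraries, grouped by role and sorted within a role by the mean nutlin-3a difference. Circles are control shRNA and squares LIMA1 shRNA cells, blue untreated and red or orange nutlin-3a. Every gene has both nutlin-3a points left of both untreated points, and the gap is narrowest for CDC25B, CKAP5 and HAUS4.

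The members did not move by the same amount. Under 10% of the untreated level was left in both populations for 31 members and over 30% for 10, with 9 in between. The widest difference was that of CKAP2L and the narrowest that of HAUS4 in control shRNA cells; in LIMA1 shRNA cells NEK2 and CDC25B took those places. Promoter windows from RefSeq (build GRCh38.p14), 250 bases before to 50 after the start of the gene, were found for 42 of the 50 members. AURKA, PBK, UBE2C, FAM64A, TPX2, TROAP, RACGAP1 and FOXM1 were not among them. The last 150 bases before the start are printed for 7 members, 5′ to 3′ on the strand of the gene, because they stand for both ends of this range. PLK1 stands for the mitotic kinases, CKAP2L and NEK2 were among the lowest with nutlin-3a, and ESPL1 differed between populations. HAUS8 is the augmin gene with the largest difference, and HAUS4 kept most of all members in control shRNA cells. CKAP5, which has CHR letters, kept much of its level. Capitals mark matches to 3 motifs, each searched on both strands. The CHR was searched as TTTGAA or as TTCGAA. The box bound by NF-Y was searched as CCAAT. The E2F element was searched as TTTCCCGC, as TTTCGCGC, as TTTGCCGC or as TTTGGCGC. A match on the opposite strand appears as TTCAAA for the CHR and as ATTGG for the CCAAT box. The sequence TTCGAA is its own reverse complement, and a CHR match can share bases with a CCAAT match, as in TTTGAATTGG.
PLK1, chr16:23678739-23678888, plus strand: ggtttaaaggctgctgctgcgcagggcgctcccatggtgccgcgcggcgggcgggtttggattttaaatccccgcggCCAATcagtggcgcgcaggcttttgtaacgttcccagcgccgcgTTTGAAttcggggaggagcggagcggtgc
CKAP2L, chr2:112764610-112764759, minus strand: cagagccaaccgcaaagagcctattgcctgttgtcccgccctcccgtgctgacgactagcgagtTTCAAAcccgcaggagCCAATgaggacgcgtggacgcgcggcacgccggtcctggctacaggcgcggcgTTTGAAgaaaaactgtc
ESPL1, chr12:53268149-53268298, plus strand: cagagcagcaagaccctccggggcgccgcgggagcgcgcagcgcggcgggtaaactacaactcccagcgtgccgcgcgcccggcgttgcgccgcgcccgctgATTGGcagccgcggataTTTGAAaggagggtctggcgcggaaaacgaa
NEK2, chr1:211675622-211675771, minus strand: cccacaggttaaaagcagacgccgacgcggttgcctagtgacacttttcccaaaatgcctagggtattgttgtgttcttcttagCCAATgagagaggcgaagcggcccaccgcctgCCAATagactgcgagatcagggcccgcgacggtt
CKAP5, chr11:46846281-46846430, minus strand: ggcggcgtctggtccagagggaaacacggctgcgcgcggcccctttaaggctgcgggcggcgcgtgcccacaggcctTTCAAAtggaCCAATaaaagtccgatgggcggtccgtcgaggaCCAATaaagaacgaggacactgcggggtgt
HAUS8, chr19:17075453-17075602, minus strand: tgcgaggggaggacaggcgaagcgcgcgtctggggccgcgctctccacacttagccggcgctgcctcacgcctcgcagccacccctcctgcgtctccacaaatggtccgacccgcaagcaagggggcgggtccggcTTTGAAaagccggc
HAUS4, chr14:22957091-22957240, minus strand: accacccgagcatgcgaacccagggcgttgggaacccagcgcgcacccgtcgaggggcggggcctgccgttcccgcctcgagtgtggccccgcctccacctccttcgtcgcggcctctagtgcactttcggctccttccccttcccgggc

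PLK1, CKAP2L, ESPL1 and HAUS8 hold TTTGAA close to the start, with first bases at -29, -17, -31 and -14 counted from the start of the gene, and the first 3 also hold a CCAAT box farther upstream. NEK2 has a pair of CCAAT boxes and no CHR letters in its window. HAUS4 has none of the 3 motifs. CKAP5 has 2 CHR matches in its window, 1 of them at 18 after the start and so outside the printed stretch, and 2 CCAAT boxes.

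Over the 42 members with a window, CHR letters were found in 26 (61.9%), compared with 11.0% of the 9810 measured genes that have a window and 16.6% of all 27305 genes in the table. Within 100 bases before to 50 after the start, 22 of the 42 (52.4%) had them, against 4.36% of measured genes. A CCAAT box was in 24 (57.1%, against 36.7% of measured genes), and both motifs together were in 20 (47.6%, against 4.75%). E2F letters were in only 2 (4.76%), HAUS8 and NUSAP1, against 5.44% of measured genes. By role, CHR letters were in 3 of 7 kinases and phosphatases, 3 of 4 anaphase genes, 8 of 10 spindle genes and 4 of 4 cytokinesis genes. They were in 6 of 7 condensin and chromosome genes and 1 of 2 genes of the transcription role (DEPDC1, not MYBL2). Of 8 augmin genes only 1 had them, HAUS8. A match is a description of letters and not a bound site.

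Members with CHR letters had a median nutlin-3a difference of -4.62 in control and -4.74 in LIMA1 shRNA cells, and the 16 without had -1.55 and -1.30. In control shRNA cells, 18 of the 26 and 4 of the 16 had a difference of at most -4. Most of this contrast lay with the augmin genes. Outside them the medians were -4.64 for 25 members with the letters and -3.89 for 9 without in control shRNA cells, and -4.83 and -4.32 in LIMA1 shRNA cells. The split was not clean in either direction. NEK2, CDC25C, NCAPH and MYBL2 had no CHR letters in the window and differences of -5.70, -5.07, -5.36 and -5.30 in control shRNA cells, whereas CKAP5, with both motifs, had -0.94. Where all annotated starts of a gene were searched, CDC25B and CDC25C had CHR letters at another start, and the share of members rose to 66.7%, against 15.6% of measured genes.

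**Figure D2:**
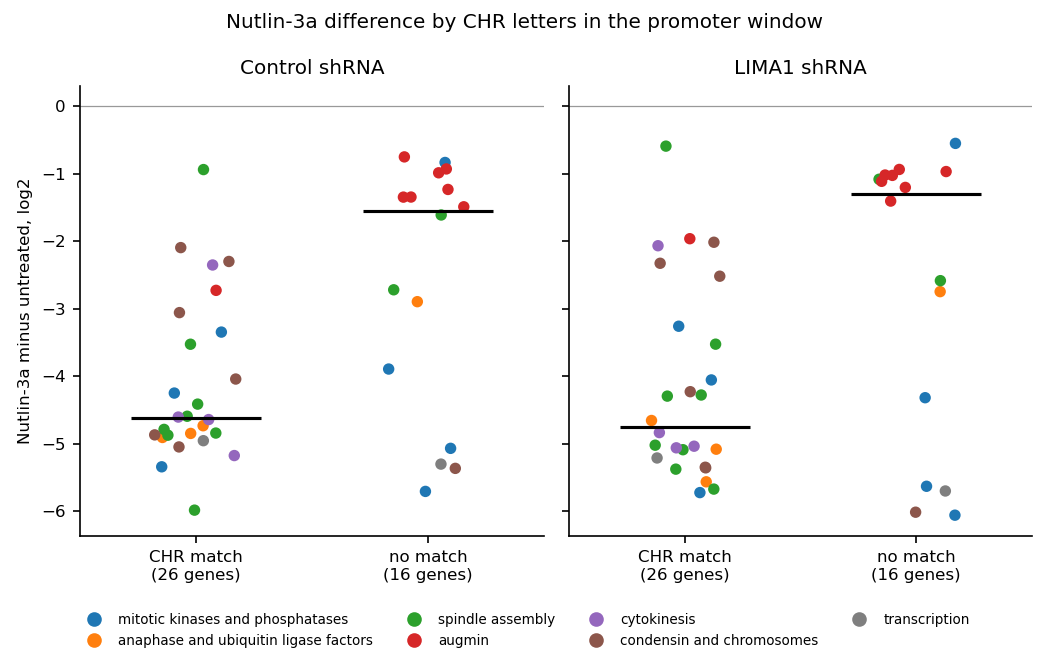
Nutlin-3a minus untreated difference (log2) of the 42 members with a promoter window, split by CHR letters in the window, for control shRNA (left) and LIMA1 shRNA cells (right). Points are genes coloured by role and bars are medians. The medians are -4.62 with and -1.55 without the letters in control shRNA cells, and 7 of the 16 genes without them are augmin genes.

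Among the kinases and phosphatases, 8 of 9 were called lower with nutlin-3a in both populations, with medians of -4.25 and -4.32. NEK2, a kinase that splits the centrosomes, stood at 1293 normalized counts in untreated control and 1278 in untreated LIMA1 shRNA cells, and at 23.8 and 18.2 with nutlin-3a. Both nutlin-3a values were far below both untreated values, at 1.84% (1.18% to 2.75%) and 1.43% (0.828% to 2.29%) of them. The exception was CDC25B, the phosphatase that starts CDK1 activation at the centrosome. It had 6282 and 6805 normalized counts untreated and 3533 and 4656 with nutlin-3a, differences of -0.83 and -0.55 that were not called. It thus kept 56.2% (54.0% to 58.6%) and 68.4% (65.9% to 71.1%) of its level. CDC25C, the related phosphatase that acts on cyclin B and CDK1, had differences of -5.07 and -5.63, with 9 and 4 fragments behind its nutlin-3a values.

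PLK1, the Polo-like kinase of entry, spindle and cytokinesis, differed by -5.34 in control and -5.72 in LIMA1 shRNA cells. PLK4, which starts centriole duplication, differed by -4.25 and -4.05. PBK, a kinase active in mitotic cells, had -4.86 and -5.07, and MELK, a kinase of proliferating cells, -3.89 and -4.32. CDKN3, a phosphatase that acts on cyclin-dependent kinases, had -3.34 and -3.26. AURKA, the Aurora kinase of centrosomes and spindle poles, had the smallest called difference of this role, -2.82 and -2.34.

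All 6 anaphase and ubiquitin ligase factors were called lower in both populations, with medians of -4.88 and -4.94. UBE2C, the ubiquitin-conjugating enzyme of the APC/C, stood at 1859.8 and 1526 normalized counts untreated and at 59.6 and 28.9 with nutlin-3a. The LIMA1 shRNA library with nutlin-3a was the lowest of the 4. PTTG1, securin, which restrains separase, had 1783 and 1428 untreated and 239 and 212 with nutlin-3a, and its differences of -2.89 and -2.74 were the smallest of the role. CDC20, the APC/C activator that the spindle checkpoint blocks, differed by -4.91 and -5.08. ESPL1, separase itself, differed by -4.73 and -5.56, CDCA3, a trigger of mitotic entry, by -4.85 and -4.65, and FAM64A, a regulator of the metaphase-to-anaphase transition, by -5.01 and -4.80.

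Of the 12 spindle genes, 11 were called lower in both populations, with medians of -4.25 and -4.28. CKAP2L, a spindle protein of neural progenitors and other dividing cells, had 627 and 596 normalized counts untreated and 8.93 and 10.7 with nutlin-3a. It kept 1.43% (0.649% to 2.72%) and 1.8% (0.859% to 3.33%), on 9 and 10 fragments. CKAP5, the microtubule polymerase ch-TOG, was the member that was not called. It had 4836 and 5193 normalized counts untreated and 2528 and 3454 with nutlin-3a, so that 52.3% and 66.5% were left. Its partner at the spindle, TACC3, differed by -2.72 and -2.58.

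The other spindle genes were spread between these ends. CKAP2, which stabilises microtubules, kept 32.8% and 47.3%, differences of -1.61 and -1.08, the latter no longer called once the length and GC trend was removed. TPX2, which activates AURKA on microtubules, had -3.89 and -4.15, and NUSAP1, which bundles microtubules near chromosomes, had -3.52 and -3.52. PRC1, which crosslinks the antiparallel microtubules of the midzone, had -4.41 and -4.29. HMMR, a microtubule and hyaluronan binding protein, had -4.79 and -5.02. ASPM, a spindle pole protein whose loss causes microcephaly, had -4.59 and -4.28. DLGAP5, which stabilises kinetochore fibres, had -4.84 and -5.09, and GTSE1, a microtubule-associated protein that also binds p53, had -4.87 and -5.37. TROAP, a microtubule-associated protein of the spindle, had -4.09 and -4.96.

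Augmin, the 8-subunit HAUS complex that lets new microtubules branch from existing ones, stood apart from the other roles. With nutlin-3a 5 of 8 subunits were called lower in control and 6 of 8 in LIMA1 shRNA cells, with medians of -1.29 and -1.07, and no subunit reached -4. Their summed level stood at 45.5% and 46.2% of untreated, whereas the sums of the other roles stood at 3.65% to 21.9% in control and 2.63% to 28.6% in LIMA1 shRNA cells. As a result augmin took 3.38% of the members' sum in untreated control cells and 11.1% with nutlin-3a, and 3.62% and 10.5% in LIMA1 shRNA cells.

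Within the complex HAUS8, the subunit that holds augmin on the microtubule, was apart from the rest. It had 176 and 199 normalized counts untreated and 25.8 and 50.4 with nutlin-3a, differences of -2.73 and -1.96. HAUS4 had 919 and 830.2 untreated and 547 and 434 with nutlin-3a, differences of -0.75 and -0.93, and was called in neither population. Between them the called subunits HAUS3, HAUS5 and HAUS6 had differences of -1.34, -1.49 and -1.34 in control and of -1.02, -1.20 and -1.11 in LIMA1 shRNA cells.

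The 3 other subunits lay at the threshold and were called in only 1 population. HAUS1 had 431 and 515 normalized counts untreated and 217 and 194 with nutlin-3a, differences of -0.98 and -1.40. HAUS2, which shares reads with another gene model, had 506 and 552 untreated and 266 and 272 with nutlin-3a, differences of -0.93 and -1.02. HAUS7 had 425 and 422 untreated and 181 and 215 with nutlin-3a, differences of -1.23 and -0.96. In each, both nutlin-3a values were below both untreated values. In LIMA1 shRNA cells HAUS2 and HAUS3 lay so close to the threshold that a pseudocount of 30, or upper-quartile or median-ratio scaling, ended both calls and left 44 of 50 members lower. Removal of the length and GC trend ended both as well, together with that of CKAP2, and added HAUS7.

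All 5 cytokinesis genes were called lower in both populations, with medians of -4.60 and -4.83. CIT, the citron kinase of the midbody, had 1217 and 1211 normalized counts untreated and 32.8 and 35.4 with nutlin-3a. ECT2, which activates RhoA at the equator, had the highest levels, 6494 and 6762 untreated and 1274 and 1617 with nutlin-3a, and kept the most, 19.6% and 23.9%. ANLN, anillin, the scaffold of the contractile ring, differed by -4.64 and -4.83. RACGAP1, the centralspindlin subunit that recruits ECT2, differed by -3.71 and -3.44. CEP55, which brings the abscission machinery to the midbody, differed by -4.60 and -5.03.

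All 7 condensin and chromosome genes were called lower in both populations, with medians of -4.04 and -4.23. The subunits of condensin I differed among themselves. NCAPH, the kleisin that closes the ring, had 1061 and 1239.9 normalized counts untreated and 24.8 and 18.2 with nutlin-3a, which left 2.34% and 1.47%. SMC4, an ATPase arm that condensin I shares with condensin II, had 5678 and 6369 untreated and 1154 and 1578 with nutlin-3a, which left 20.3% and 24.8%. NCAPG, a regulatory subunit, was near NCAPH with -5.05 and -5.35. The regulatory subunit NCAPD2 and the arm SMC2 were nearer SMC4, with -2.09 and -2.32 and with -3.05 and -2.52. TOP2A, the topoisomerase that untangles sister chromatids, differed by -4.04 and -4.23, and MKI67, the proliferation antigen that coats mitotic chromosomes, by -4.87 and -5.36.

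The 3 genes of transcription and growth control were the lowest role in both populations, with medians of -4.95 and -5.21 and a summed level at 3.65% and 2.63% of untreated. MYBL2, the B-MYB partner of MuvB, had 2423 and 3000.2 normalized counts untreated and 60.6 and 56.8 with nutlin-3a. FOXM1, the forkhead activator of late cell cycle genes, had 2786 and 2899 untreated and 135 and 98.3 with nutlin-3a. Both factors were low in the same libraries as every other member, and their part in the other differences was not tested. DEPDC1, a nuclear protein described as a transcriptional corepressor, differed by -4.95 and -5.21.

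**Figure D3:**
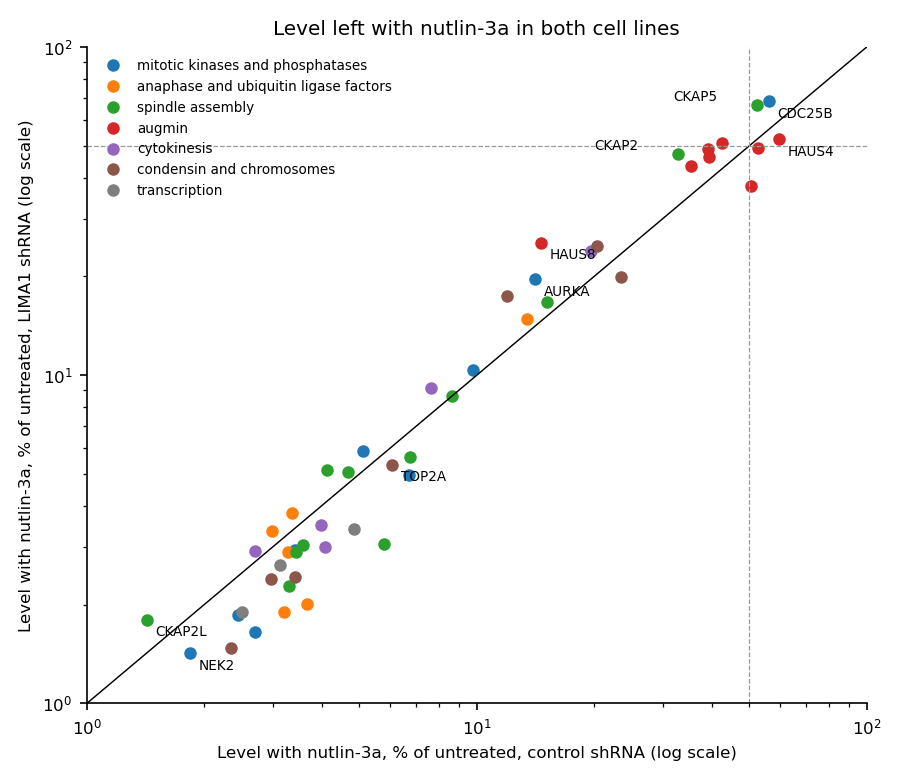
Level with nutlin-3a as a percentage of untreated in control shRNA cells (horizontal) and LIMA1 shRNA cells (vertical), both on log axes; each point is 1 of the 50 genes, coloured by role. The solid line marks equal percentages and the dashed lines 50%. Points run along the line from CKAP2L (1.43% and 1.8%) and NEK2 to the augmin genes, CKAP5 and CDC25B (56.2% and 68.4%).

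The order of the members was alike in both populations. Across the 50 genes, Pearson's r of the nutlin-3a differences was 0.98 and Spearman's rho 0.96, compared with 0.88 and 0.87 over the 12742 measured genes. Genes are not independent replicates, and all values of a population share a pair of libraries. Per kb of transcript, untreated control levels ran from 41.9 normalized counts for HAUS3 to 2103 for TOP2A. The augmin genes, at 41.9 to 560 per kb, were at the lower end, though ASPM, CIT, CKAP2L, PLK4 and ESPL1 had 138 to 292 per kb and large nutlin-3a differences.

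Untreated cells of both populations had similar levels of these genes. No member was called higher or lower, where 1.04% and 2.05% of measured genes were. Among genes with a mean of at least 150, which 49 members have, 0.42% and 0.68% were. A count of 0 among the members is near these shares. The median was 0.0036 (-0.07 to 0.06), with 26 members above 0 and 24 below, while 54.4% of measured genes were above 0. This balance turned with the scaling: the median was -0.05 with 19 members above 0 under upper-quartile scaling, -0.04 with 20 under equal-total scaling and -0.01 with 24 under median-ratio scaling. Differences ran from -0.71 for FAM64A to 0.41 for DEPDC1 and HAUS6. The deep counts of untreated cells still resolved small differences, on counting error alone: counting intervals lay above 0 for 16 members, below 0 for 16 and held 0 for 18. No such count was made over measured genes, so it cannot be said whether these numbers are particular to the members.

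The small differences were not spread evenly over the roles. All 6 anaphase factors were below 0, with a median of -0.30. They stayed so under every scaling and trend correction tried, while a pseudocount cannot change this sign. CDC20 was nearest to 0 at -0.10 and FAM64A farthest. All 7 condensin and chromosome genes were above 0, with a median of 0.15 and values from 0.00 for TOP2A to 0.22 for NCAPH, but upper-quartile and equal-total scaling left 5 of 7 above 0, and median-ratio scaling or removal of the length and GC trend left 6. The 3 transcription genes were above 0, at 0.06 for FOXM1, 0.31 for MYBL2 and 0.41 for DEPDC1. The kinases and phosphatases had 3 of 9 above 0, with PBK lowest at -0.43.

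With nutlin-3a, 3 members were called lower in LIMA1 than in control shRNA cells and none higher, against 1.94% and 1.26% of measured genes. The median was -0.11 (-0.27 to 0.13). UBE2C, at 59.6 against 28.9 normalized counts, differed by -1.02 (-1.75 to -0.36), on 60 and 27 fragments. ESPL1 stood at 1107 and 958 untreated and at 40.7 and 19.3 with nutlin-3a, where it differed by -1.04 (-1.96 to -0.24), on 41 and 18 fragments. TROAP stood at 839.8 and 629 untreated and at 48.4 and 19.3 with nutlin-3a, and differed by -1.28 (-2.20 to -0.53).

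In all 3 genes the LIMA1 shRNA value was also the lower of the pair in untreated cells, by -0.29, -0.21 and -0.42. TROAP shares reads with another gene model, so its fragments are estimates. The 3 calls rest on few fragments. A pseudocount of 30 ended all 3, removal of the length and GC trend ended that of UBE2C, and a pseudocount of 0.1 added CDC25C, which had 9 and 4 fragments. At the other end HAUS8 differed by 0.94 (0.24 to 1.72), SMC2 by 0.69 and HAUS6 by 0.64, which were not called.

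Counting intervals of the LIMA1 shRNA difference lay on the same side of 0 in both treatments for 7 members above it and 6 below. The same was not counted over measured genes. CDC25B, ASPM, CKAP5, HAUS6, ECT2, SMC2 and SMC4 were above 0 in both, and PBK, UBE2C, ESPL1, DLGAP5, TROAP and HAUS4 below 0 in both. The anaphase factors were again all below 0, under every scaling and trend correction tried. Their median was -0.40, but -0.19 with a pseudocount of 30, which cannot change a sign. Of the condensin and chromosome genes only SMC2 and SMC4 were above 0 with nutlin-3a, and 1 of the 3 transcription genes was. Augmin had 6 of 8 above 0 in both treatments, where 54.4% and 54.6% of measured genes were above 0, and under upper-quartile or equal-total scaling 4 of 8 untreated and 5 of 8 with nutlin-3a. Across the 50 genes the differences in both treatments had an r of 0.58 and a rho of 0.56, against 0.49 and 0.58 over measured genes, with no library in common.

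**Figure D4:**
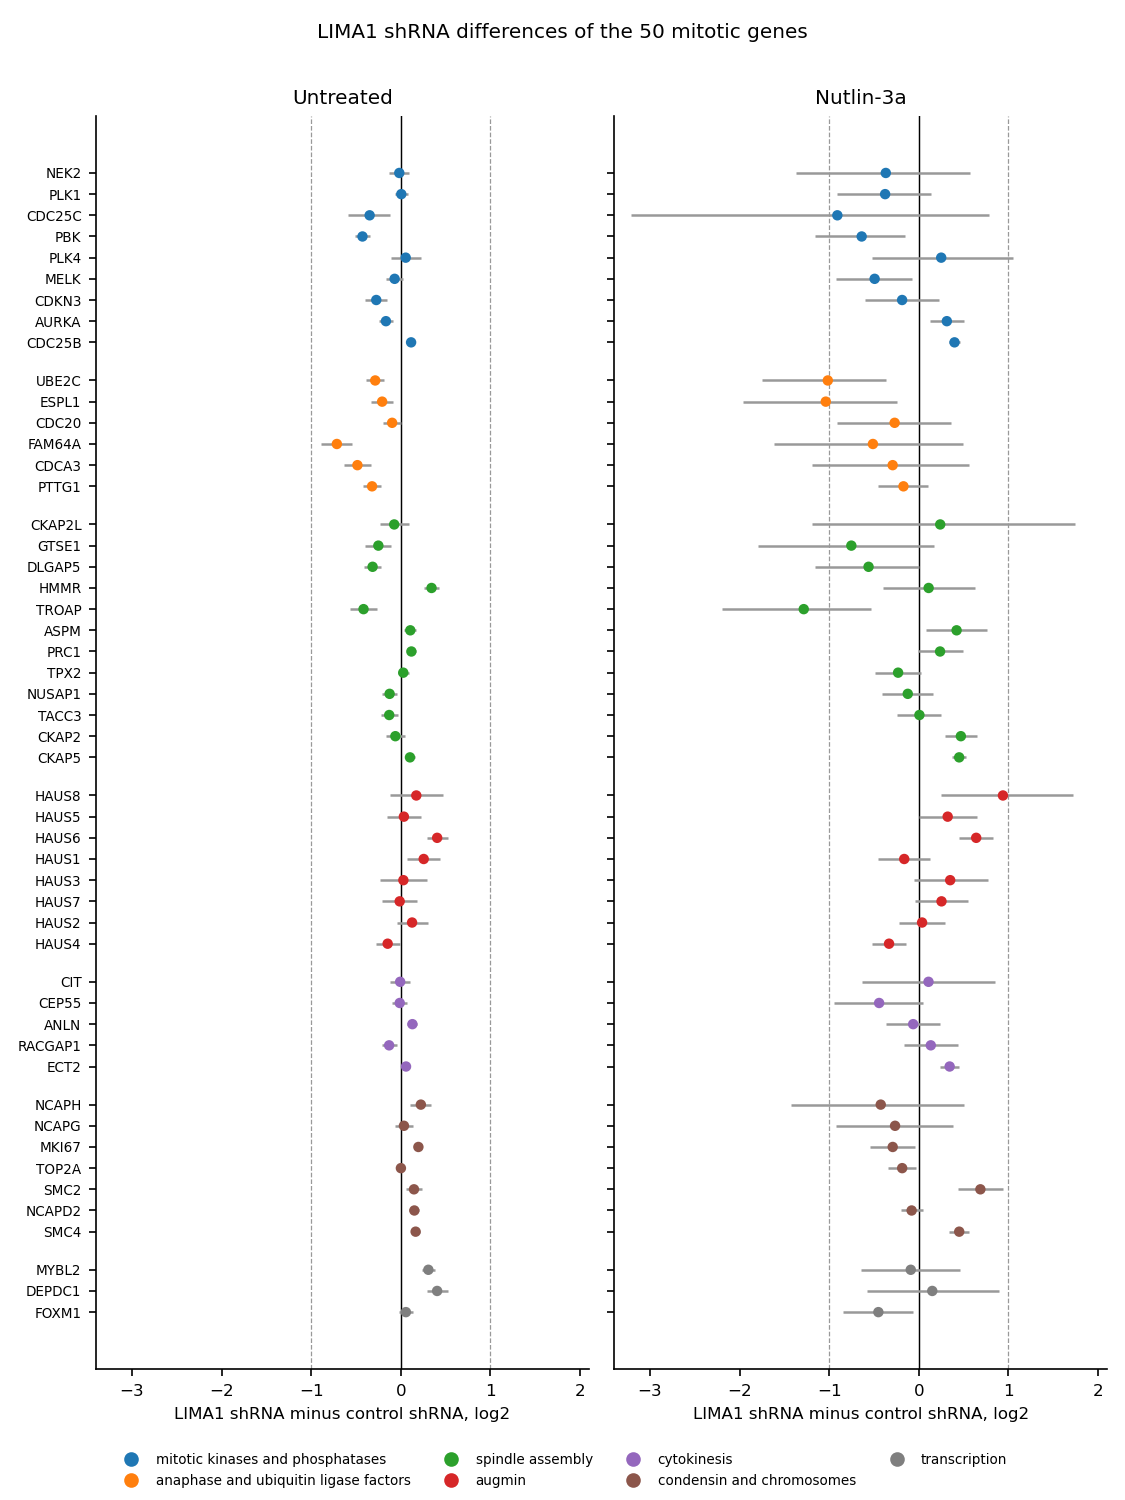
LIMA1 shRNA minus control shRNA difference (log2) of the 50 genes in untreated cells (left) and with nutlin-3a (right), grouped and coloured by role. Bars are 95% counting intervals and dashed lines mark -1 and 1. No untreated point passes the dashed lines, UBE2C, ESPL1 and TROAP pass -1 with nutlin-3a, and the bars are wider with nutlin-3a, where fewer fragments were counted.

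The nutlin-3a responses were then set against each other, LIMA1 minus control shRNA cells. No member was called in this difference, where 1.27% of measured genes were called higher and 0.816% lower. Among genes with a mean of at least 150 the shares were 0.29% and 0.29%, so a count of 0 is near them. The median was -0.13 (-0.25 to 0.19), but -0.01 with a pseudocount of 30 and 0.0009 over the 43 members with whole values. The range ran from -0.87 for TROAP to 0.77 for HAUS8. Counting intervals lay above 0 for 9 members (AURKA, CDC25B, CKAP2, CKAP5, HAUS6, HAUS8, ECT2, SMC2 and SMC4), below 0 for 8 (UBE2C, ESPL1, TROAP, HAUS1, NCAPD2, TOP2A, MKI67 and FOXM1) and held 0 for 33. Of the first 9, SMC2 kept the least with nutlin-3a in control shRNA cells, 12% of its untreated level. Counting intervals of this difference were not counted over measured genes.

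The LIMA1 shRNA differences ran with transcript length. Across the 50 members, the untreated difference and log2 length had an r of 0.47 and a rho of 0.53, and the difference with nutlin-3a an r of 0.39 and a rho of 0.48. Over the 11937 measured genes with a length, rho was 0.15 and 0.18. Split at the median length of 3202.5 bases, 19 of the 25 shorter members were below 0 in untreated cells (median -0.13) and 20 of the 25 longer members above 0 (median 0.06). With nutlin-3a, 20 of the shorter were below 0 (median -0.33) and 17 of the longer above 0 (median 0.24). A linear trend with length and GC content, fitted over measured genes, was then removed. Over these genes r with log2 length was only 0.09 untreated and 0.12 with nutlin-3a. Its length part could thus take away little of the members' own trend. Afterwards 18 of the shorter were below 0 and 18 of the longer above 0 in untreated cells, and 20 and 17 with nutlin-3a. Upper-quartile scaling left 14 and equal-total scaling 15 of the longer members above 0 in untreated cells. ESPL1 went against this order, with a transcript of 6623 bases and a difference below 0 in both treatments. The part of length in the differences by role was not tested beyond this.

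**Figure D5:**
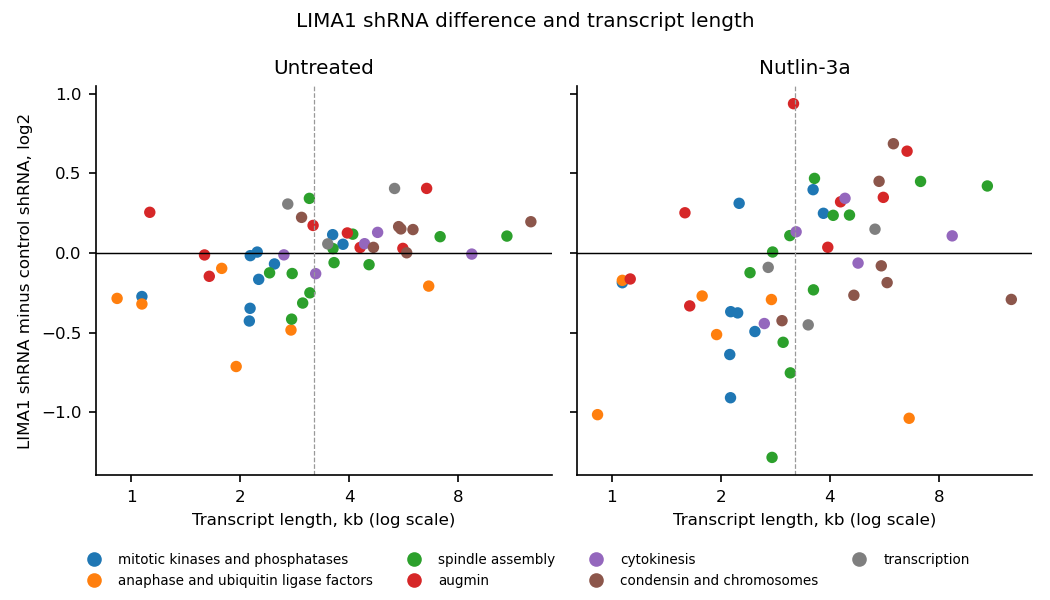
LIMA1 shRNA minus control shRNA difference (log2) of the 50 genes against transcript length (kb, log axis) in untreated cells (left) and with nutlin-3a (right), coloured by role; the dashed line is the median length. In untreated cells 19 of the 25 shorter genes lie below 0 and 20 of the 25 longer genes above it.

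The rest of the mitotic machinery was read from 85 other genes, all of them measured. With nutlin-3a 36 were called lower in control and 34 in LIMA1 shRNA cells and none higher. Of all measured genes, 5.64% and 6.08% were called lower and 5.54% and 7.29% higher. Medians of the 85 were -0.77 and -0.72, against -0.02 and -0.02 over measured genes. The share called lower depended on the group. AURKB, BIRC5, CDCA8 and INCENP, all 4 genes of the chromosomal passenger complex, which corrects faulty attachments and directs cytokinesis, were lower in both populations, as were NCAPD3, NCAPG2 and NCAPH2, all 3 subunits specific to condensin II. So were 10 of 12 genes of the cyclin and CDK entry switch. PKMYT1, which phosphorylates and restrains CDK1, was the lowest of the 85 in control shRNA cells, with 614 and 636 normalized counts untreated and 10.3 and 10.9 with nutlin-3a, differences of -5.76 and -5.74. CCNA2, cyclin A2, differed by -4.93 and -5.46. In LIMA1 shRNA cells AURKB, the Aurora kinase of the passenger complex, was the lowest, at -6.09, against -4.81 in control shRNA cells.

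By their medians the other groups moved less than those above, but some of their genes fell as far. The shares of measured genes called lower were 5.64% in control and 6.08% in LIMA1 shRNA cells, and each group below had a larger share. Of 16 APC/C subunits and regulators, 3 were called lower in control shRNA cells (ANAPC1, FBXO5 and UBE2S) and the last 2 of these in LIMA1 shRNA cells. Of 16 gamma-tubulin, spindle pole and microtubule factors, 5 were called in control shRNA cells (TUBG1, TUBGCP3, NEDD1, CEP192 and RCC1), and 4, all but TUBG1, in LIMA1 shRNA cells. Of 11 cohesin genes, 5 were called in control shRNA cells (SMC1A, SMC3, RAD21, CDCA5 and ESCO2), and these with STAG1, 6 in all, in LIMA1 shRNA cells. CDCA5 differed by -4.73 in control and -4.61 in LIMA1 shRNA cells, and ESCO2 by -4.88 and -5.63. Of 10 DREAM and MuvB genes, 4 were called in control shRNA cells (LIN9, LIN52, RBL1 and TFDP1), and 3, all but LIN52, in LIMA1 shRNA cells. Of 13 other cytokinesis genes 2 were called lower in both populations, the kinesins KIF23 (-4.21 in control and -4.68 in LIMA1 shRNA cells) and KIF20A (-4.78 and -5.04). These names were chosen after their values were seen. CHMP2A, an ESCRT-III subunit of abscission, and SEPT9, a septin, were the highest of the 85, with 0.58 and 0.43 in control and 0.54 and 0.52 in LIMA1 shRNA cells, which were not called.

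Between the populations, counts for the 85 were near the shares of all measured genes. In untreated cells 0 were called higher and 1 lower, LIN52 at -1.69, against 1.04% and 2.05% of measured genes. The highest with a mean of at least 150 were LIN54, a DNA-binding MuvB subunit, at 0.60 and MYH9, the heavy chain of nonmuscle myosin IIA, at 0.56, and the lowest were BORA, which helps AURKA activate PLK1, at -0.37 and CCNB2, cyclin B2, at -0.36. With nutlin-3a 1 was called higher and 2 lower, against 1.26% and 1.94%. LIN9, the MuvB core subunit, stood at 59.6 with control and 131 with LIMA1 shRNA, a difference of 1.12. AURKB stood at 28.8 and 11.8, a difference of -1.22, and LIN52, another MuvB subunit, which falls under the mean of 150 and is named because it was called, differed by -1.40. NCAPG2 of condensin II was next highest at 0.59 and CCNB2 next lowest at -0.94. In the difference of responses AURKB was called lower, at -1.28, and BIRC5, survivin of the same complex, had -0.77. BORA and LIN9 were highest at 0.90 and 0.81. The AURKB values with nutlin-3a, 28.8 and 11.8, are low, as are those of PKMYT1, 10.3 and 10.9. Of the other genes named, CCNA2, PKMYT1, BORA, NCAPH2 and RCC1 share reads with another gene model, or may, so their fragments are estimates. No call among the 85 was repeated with another pseudocount or scaling.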

How the data were processed

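RNA sequencing of 4 A549 libraries, 1 per group, was read as deposited. The deposited signal of a gene behaves as its fragment count over a size factor, 1 for each library, with no term for gene length; this was read from the spacing of low values. Of values worth 0.5 to 1000 fragments, 85.5% to 86.3% per library were whole to within 0.1, too few for a count test. The build hg19 is named per the submitters' processing notes, along with Cuffnorm 2.2.1, Bowtie2 2.0.12 and bcl2fastq 1.8.3, without roles. No annotation is named in the sources used here.

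Genes with a mean of at least 30 over the 4 libraries (12742) were measured. Differences were taken between log2(value + 1) values in 5 contrasts: nutlin-3a against untreated in each population, both populations against each other within each treatment, and the difference of both responses. On this scale, changes of low genes are understated. A gene was called at a size of at least 1, and the share of measured genes called stands beside the members' count. With 1 library per group no test was made. Genes with a value off a whole number share reads with another gene model, or may; 7 members did (CDC25C, PRC1, TROAP, HAUS2, HAUS5, NCAPG and FOXM1). Intervals are exact Clopper-Pearson 95% intervals of fragment counts, for a difference of responses the conditional exact interval of the odds ratio; reads carry no molecular identifiers, so they cover counting error only. The calling step was tested on simulated data.

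A marker of the lists is not reported here. The members and lists, and the 85 other mitotic genes, were chosen with earlier results of these data known. All 4 values are printed for the highest and lowest member of each role by the mean of both nutlin-3a differences, for members called between populations and for members not called with nutlin-3a in both, and, of the 85 other genes, the 2 highest and 2 lowest per contrast with a mean of at least 150 are named. Transcript lengths came from GENCODE 29 (another build, used only for length and GC content) for all 50 members and 11937 measured genes (93.7%). Promoter windows were those of RefSeq, the first per gene. Alternatives were pseudocounts of 0.1 and 30, 3 scalings, other filters, a call size of 2, members with whole values and, chosen after seeing the data, removal of the length and GC trend and all promoter windows of a gene. Python 3.11.15, numpy 2.4.6, pandas 2.3.3, scipy 1.17.1 and matplotlib 3.10.9 were used.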

Additional observations from a re-analysis of the deposited data

Results flagged for a closer look

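AURKA and MKI67 were singled out because their LIMA1 minus control shRNA differences had opposite signs in untreated and in nutlin-3a libraries, with counting intervals that exclude 0 each time. AURKA had 3089 normalized counts with control and 2754 with LIMA1 shRNA in untreated cells, a difference of -0.17 (-0.24 to -0.09). With nutlin-3a it had 436 and 541, a difference of 0.31 (0.13 to 0.50). MKI67 had 8687 and 9956 normalized counts in untreated cells, a difference of 0.20 (0.16 to 0.24), and 297 and 242 with nutlin-3a, a difference of -0.29 (-0.55 to -0.04). The difference between both treatments was 0.48 for AURKA (0.28 to 0.68) and -0.49 for MKI67 (-0.75 to -0.23), on intervals of counting error alone. With 1 library per group this difference was not tested. Its intervals come from the same values as the rule that picked both genes. That rule makes an interval that excludes 0 nearly certain here, so these intervals are no separate check. How many measured genes meet the rule was not counted, so it cannot be said whether AURKA and MKI67 are unusual.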

How the results depend on the processing

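No paired analysis was possible because the groups compared share only 1 replicate number; an additive model of population and treatment, whose error would be the difference of responses, was not run. With 1 library per group none was left out. Over 10 alternatives, 143 of 145 counts and medians of the members stayed within 1.5 times the reported count or inside the order-statistic interval of the reported median. Many of the counts were 0 and stayed 0, among them every count of members called higher. The intervals of the medians are wide. The untreated LIMA1 shRNA median changed sign, from 0.0036 to -0.05 under upper-quartile scaling, and was still inside its interval. The tally is therefore a weak check. Single members were recomputed under 6 of the 10 alternatives (pseudocounts, scalings and trend removal), 1500 differences in all, called or not. Among the called ones 0 changed sign. This says little, since a pseudocount cannot change the sign of a difference between 2 libraries. The scalings, too, shift a difference far less than the size of 1 that a call needs. The 2 results that moved were counts of members called lower with LIMA1 shRNA under nutlin-3a, 3 as reported. They came to 0 with a pseudocount of 30 and to 0 when a call needed a size of 2. That size left 40 members lower with nutlin-3a in control and 39 in LIMA1 shRNA cells, against 2.46% and 2.37% of measured genes. Scaling moved the median of all measured genes by less than 0.1. Depth limits the nutlin-3a comparisons, since 26 of the 50 members had under 100 fragments in at least 1 nutlin-3a library.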
